A study of Mus musculus with 2 samples.

Results

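Alx1 and Alx4 are homeobox genes of the aristaless-like family, which encode paired-class transcription factors of the facial mesenchyme. Both are known from mice and people in whom their loss disturbs the midface, the forehead and the nose. They were taken as the rows of the count tables whose symbol is Alx1 or Alx4, which are 2 of 32285 genes listed. Cranial neural crest cells leave the dorsal neural tube, fill the facial prominences and form most of the facial skeleton, and the frontonasal prominence is the midfacial one. TFAP2 proteins are transcription factors active in the neural crest and in the face's ectoderm.

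Single-cell RNA-seq was measured in E11.5 mouse heads, cut below the second pharyngeal arch. GFP-positive cells were sorted from embryos in which Wnt1CRE, active in the neural crest and in part of the dorsal brain, switches the r26 mTmG reporter to membrane GFP. All embryos were Wnt1CRE+ and carried r26 mTmG/mTmG. The control library pooled 2 embryos that were Tfap2a wt/flox as well as Tfap2b wt/flox, so the controls also carried 1 conditional allele of each gene. The mutant library pooled 2 embryos that were flox/flox for both Tfap2a and Tfap2b. The comparison asks how the levels of Alx1 and Alx4 differ when neural crest cells lack both Tfap2 genes.

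There was 1 library per genotype, so no test between genotypes was possible, and every interval below is a 95% interval that covers counting error only. The control library held 6148 cell barcodes with 83542433 UMIs (unique molecules counted), and that of the mutants had 79206144 UMIs in 6063 barcodes. Filtering left 5625 control and 5587 mutant cells, whose median depths were 13478 and 12234 UMIs, and 5 of these barcodes occurred in both libraries. Xist was counted in 98.8% of control and 0.107% of mutant cells, and Y-linked genes in 0.0356% and 82.0%, so that sex and genotype cannot be told apart.

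In the mm10 (GRCm38) assembly, Alx1 (ENSMUSG00000036602) lies on the minus strand at chr10:102998707-103030215, and Alx4 (ENSMUSG00000040310) on the plus strand at chr2:93642384-93681339. The 5′ end of Alx1 shares 243 exonic bases with the lincRNA Gm17028 on the same strand. Alx4 overlaps Ext2, which is transcribed from the other strand, over 20312 bases but with 0 shared exonic bases. In mesenchyme-like cells Ext2 stood at 31.0 CPM (UMIs in every 1000000 UMIs of the same cells) in the control and 34.3 in the mutant library, so it was not lower in the mutant as Alx4 was.

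The transcripts of Alx1 and Alx4 are related, and their longest run of identical bases was sought. How far reads of one could be counted for the other was not tested. The run was 19 bases long and lay in the coding sequence of both genes. It is shown in capitals within a window of 30 bases of each coding sequence (5′ to 3′, GENCODE M21 transcripts). The window lies at chr10:103009208-103009237 on the minus strand for Alx1 and at chr2:93677512-93677541 on the plus strand for Alx4.
Alx1: tgagaATGAAGGCCAAGGAGCACAccgcca
Alx4: tgcgcATGAAGGCCAAGGAGCACAgtgcag

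Cells fell into mesenchyme-like, neural-like and glia-like classes, and both genes were counted chiefly in mesenchyme-like cells. This class held 3754 control and 2808 mutant cells, with median depths of 14558 and 14454 UMIs. All 5 markers of the class (Prrx1, Prrx2, Twist1, Twist2 and Pdgfra) had UMIs in both libraries. In the control library Alx1 stood at 190 CPM in mesenchyme-like cells (186.6 to 193.7, from 11068 UMIs) and Alx4 at 50.4 (48.6 to 52.3, from 2936 UMIs). In brain progenitor-like cells, which are not expected to transcribe either gene and serve as the background, Alx1 stood at 6.25 and 1.73 CPM in the control and mutant library and Alx4 at 1.79 and 0.805.

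Both genes were lower in the mutant mesenchyme. Alx1 stood at 190 CPM in the control and 117 in the mutant library, giving a log2 ratio of -0.70 (-0.74 to -0.65). Alx4 stood at 50.4 and 37.2, a log2 ratio of -0.44 (-0.53 to -0.35). The log2 ratio of Alx1 minus that of Alx4 was -0.26 (-0.36 to -0.16), so Alx1 was the more reduced. Of 11644 genes with 100 or more UMIs in 1 or both libraries, 0.928% were 1.5-fold or more lower in the mutant mesenchyme and 2.31% were 1.5-fold or more higher. Alx1 was past that fold and Alx4 was not, and 69 and 186 genes had lower ratios than Alx1 and Alx4. The median log2 ratio over all these genes was 0.02.

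Markers of other cell types also differed between the mesenchyme-like cells of the libraries. The summed level of 5 neuron markers was 34.8 CPM in the control and 65.7 in the mutant library, that of 5 brain progenitor markers 11.4 and 30.9, and that of 6 mural markers 63.4 and 108. All of these markers had UMIs in both libraries. Apart from leaving out a cluster led by brain genes, as given further below, their part in the Alx ratios was not tested. Blood genes stood at 158 and 1.39 CPM, and 1 control cell, in the periocular/meningeal-like cluster described below, drew 1% or more of its UMIs from them. Without it, an alternative chosen after seeing the data, the log2 ratios in the mesenchyme were -0.70 and -0.44, and those in that cluster -0.85 for Alx1 and -0.45 for Alx4.

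The levels were also computed with the cluster mix of the control library, taking the assignment of cells to clusters as given. When the mutant levels of 11 mesenchyme clusters were weighted by the control library's share of UMIs in each cluster, Alx1 came to 137 CPM and Alx4 to 42.7. The log2 ratios were then -0.47 and -0.24, which left 72.4% of the difference in Alx1 and 58.4% of that in Alx4. Leading genes of the frontonasal-like cluster led by Tfap2b, described below, were lower in its mutant cells. Whether the assignment of cells to clusters differed with genotype was not tested, so these values do not divide the differences by cause. A sorted sample cannot tell fewer cells of a region in the embryo from fewer of them recovered, and sizes of single clusters are not compared here.

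Mesenchyme-like cells were clustered without the Alx genes, Tfap2a, Tfap2b and the genes that the study named as changed, and clusters were named from region markers. Of 5 broad clusters, the maxillary-like, mandibular-like and second arch-like ones could be named. A cluster led by Tfap2b, Zic1 and Alcam and a cluster led by brain genes (Pou3f2, Otx2, Sox2) could not. For Alx1 the log2 ratio was -0.53 (-0.60 to -0.47) in the maxillary-like cluster, -0.90 (-0.99 to -0.81) in the Tfap2b-led cluster, -0.92 (-1.38 to -0.48) in the second arch-like cluster and 0.19 (0.03 to 0.35) in the mandibular-like cluster. For Alx4 it was -0.31 (-0.45 to -0.17), -0.59 (-0.76 to -0.43), -0.33 (-0.79 to 0.13) and 0.04 (-0.13 to 0.22) in the same order. The broad maxillary-like cluster was a mixture, since at the finer clustering 1082 of its cells were maxillary-like, 656 frontonasal-like and 525 in the unnamed Foxl2 cluster described next.

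The finer clustering, with 11 clusters, separated the regions in which the genes were most abundant. Among them were 2 frontonasal-like clusters, one led by Tfap2b, Tfap2a, Shox2, Crym and Eps8 (the Tfap2b cluster, 434 control and 261 mutant cells) and one led by Pmaip1, Rnf128, Igfbp7, Gata3 and Pdlim3 (the Gata3 cluster, 409 and 250 cells). The Gata3 cluster was named from 3 of 4 frontonasal markers that were higher there than in other cells, none of which was among its 10 leading genes. An unnamed cluster had Foxl2, Pax7, Irx5 and Irx3 among its leading genes (the Foxl2 cluster, 377 and 247 cells). It also had 3 of 4 frontonasal markers higher than in other cells, but stayed unnamed because more of its 10 leading genes came from the periocular/meningeal list. A periocular/meningeal-like cluster was led by Ogn, Thbs1, Igfbp5, Spon1 and Alcam (286 and 259 cells).

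In the control library Alx1 was highest in the Gata3 cluster, at 568 CPM (548.9 to 586.9). The Foxl2 cluster followed at 449, the periocular/meningeal-like cluster at 340 and the Tfap2b cluster at 296, and the intervals of these 4 clusters did not overlap. They held 85.8% of the control mesenchyme's Alx1 UMIs in 40.1% of its cells. Alx1 was lower in the mandibular-like cluster, marked by Hand2, at 89.3 CPM, and in the Gpr50 cluster at 49.8. It was at 39.2 and 38.4 in the second arch-like cluster led by Cyp26a1 and in the maxillary-like cluster, marked by Lhx6 and Lhx8, whose intervals overlapped. The mural-like cluster stood at 26.4 and the second arch-like cluster led by Dlx3 at 9.71, near the 6.25 of brain progenitor-like cells.

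Alx4 was spread more evenly. It stood at 89.7 CPM (82.3 to 97.5) in the Gata3 cluster, 88.7 (82.1 to 95.8) in the Tfap2b cluster, 75.8 (69.2 to 82.9) in the Foxl2 cluster, 73.9 (67.2 to 81.1) in the mandibular-like cluster and 71.8 (62.5 to 82.0) in the periocular/meningeal-like cluster. The intervals of neighbours in this order overlapped. The mural-like cluster, at 47.5, and the Gpr50 cluster, at 46.6, came next, and both second arch-like clusters and the maxillary-like cluster lay between 7.94 and 16.8. The mandibular-like cluster thus had an Alx4 level near that of the midfacial clusters with an Alx1 level below them.

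**Figure D1:**
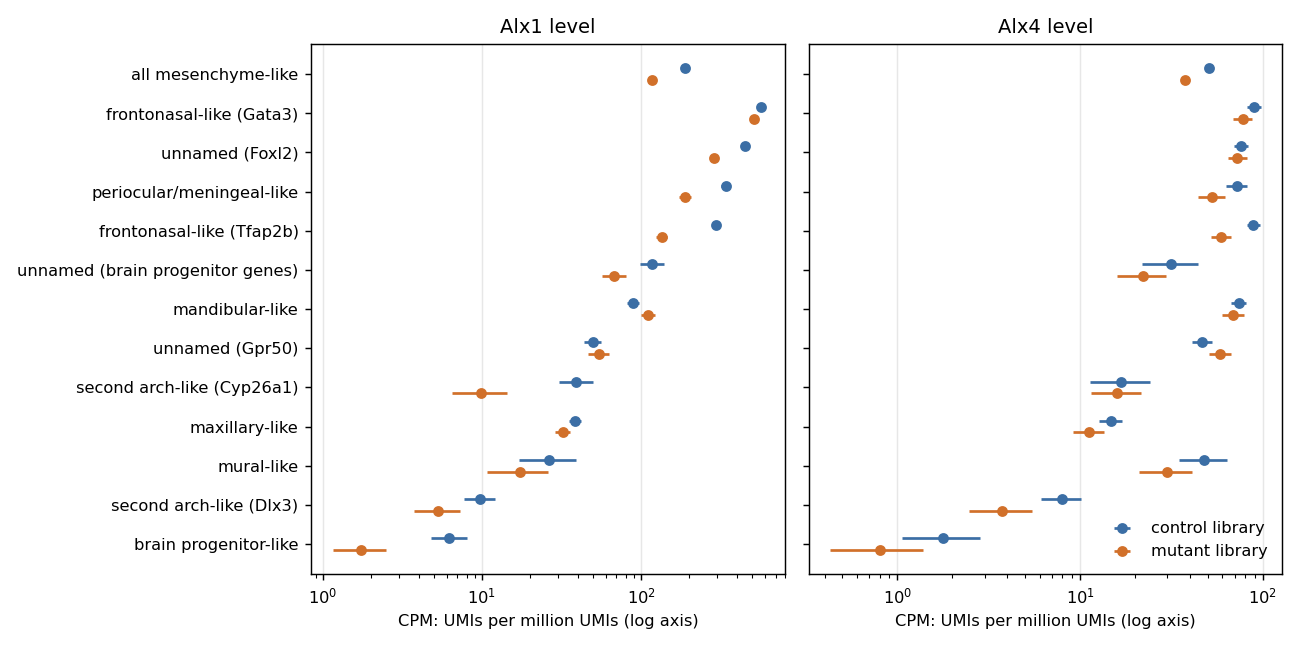
Level of Alx1 (left) and Alx4 (right) in CPM on a log axis, in all mesenchyme-like cells, in the 11 fine mesenchyme clusters and in brain progenitor-like cells. Points are the control (blue) and mutant (orange) library and bars are exact Poisson 95% intervals. Alx1 spans from 568 to 9.71 CPM over the control clusters, and Alx4 from 89.7 to 7.94.

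The balance between the genes therefore changed with region. These are UMIs of transcript 3′ ends, so the ratio is used to compare clusters and not as a ratio of transcripts. There were 6.33 Alx1 UMIs per Alx4 UMI in the control Gata3 cluster, 5.92 in the Foxl2 cluster, 4.73 in the periocular/meningeal-like cluster and 3.33 in the Tfap2b cluster. The mandibular-like cluster had 1.21 and the mural-like cluster 0.556. In the mutant library the ratio was 6.65 in the Gata3 cluster but 3.95, 3.62 and 2.28 in the Foxl2, periocular/meningeal-like and Tfap2b clusters.

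The difference between the libraries was uneven between the 2 frontonasal-like clusters. In the Tfap2b cluster Alx1 stood at 296 CPM in the control (283.6 to 308.7) and 135 in the mutant library (124.1 to 145.9), giving a log2 ratio of -1.14 (-1.27 to -1.0). In the Gata3 cluster it stood at 568 and 514, a log2 ratio of -0.14 (-0.22 to -0.06). The ratio was lower in the Tfap2b cluster by a difference of -0.99 (-1.15 to -0.84). Of the genes with enough UMIs, 1.76% in the Tfap2b cluster and 0.693% in the Gata3 cluster were 1.5-fold or more lower, and Alx1 was past that fold in the first and not in the second. Merging the libraries without integration gave a smaller contrast, with log2 ratios of -0.73 and -0.33 in the clusters that shared most cells with these, the second of which was also the best match of the Foxl2 cluster.

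Alx1 was also lower in the mutant periocular/meningeal-like cluster, at 340 and 189 CPM with a log2 ratio of -0.84 (-1.0 to -0.69). In the Foxl2 cluster it stood at 449 and 287, a log2 ratio of -0.65 (-0.75 to -0.55). In those clusters 1.49% and 0.801% of genes were 1.5-fold or more lower. The mandibular-like cluster went the other way, with Alx1 at 89.3 CPM in the control (533 UMIs in 359 cells) and 111 in the mutant library (340 UMIs in 168 cells), giving a log2 ratio of 0.31 (0.11 to 0.51). Fewer UMIs lay behind the second arch-like cluster led by Cyp26a1, where Alx1 had 70 and 26 UMIs and a log2 ratio of -1.99 (-2.70 to -1.32), which was -0.55 without integration.

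For Alx4 the interval lay below 0 in 6 of the 11 fine clusters, and for Alx1 in 8. The 8 include the maxillary-like cluster, whose Alx1 ratio reversed when cells were thinned to equal depth. They also include the cluster led by brain genes, where most cells were called doublets. Within the Tfap2b cluster Alx4 stood at 88.7 and 59.0 CPM, a log2 ratio of -0.59 (-0.80 to -0.38) that lay just past 1.5-fold. It was at 71.8 and 52.4 in the periocular/meningeal-like cluster, a log2 ratio of -0.45 (-0.77 to -0.14) that came to -0.091 with cells up to 5% mitochondrial UMIs. In the Gata3 cluster the levels were 89.7 and 77.4, with a log2 ratio of -0.21 (-0.43 to -0.0042). In the Foxl2 cluster they were 75.8 and 72.6, and the interval of the log2 ratio of -0.06 ran from -0.28 to 0.15. The mandibular-like cluster gave -0.10 (-0.35 to 0.14). The lowest Alx4 ratios were in clusters with few Alx4 UMIs, at -1.08 (-1.79 to -0.41, from 63 and 27 UMIs) in the second arch-like cluster led by Dlx3 and -0.67 (-1.33 to -0.02, from 45 and 38 UMIs) in the mural-like cluster. The maxillary-like cluster had -0.40 (-0.76 to -0.05), which came to 0.067 without integration.

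The genes' ratios were thus apart in some regions and not in others. Alx1 minus Alx4 was -0.55 (-0.79 to -0.30) in the Tfap2b cluster, -0.59 (-0.82 to -0.35) in the Foxl2 cluster and -0.39 (-0.73 to -0.04) in the periocular/meningeal-like cluster. It was -1.91 (-2.85 to -0.98) in the second arch-like cluster led by Cyp26a1, which had the fewest Alx4 UMIs in the control. It was 0.07 (-0.15 to 0.29) in the Gata3 cluster and 0.41 (0.11 to 0.72) in the mandibular-like cluster.

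**Figure D2:**
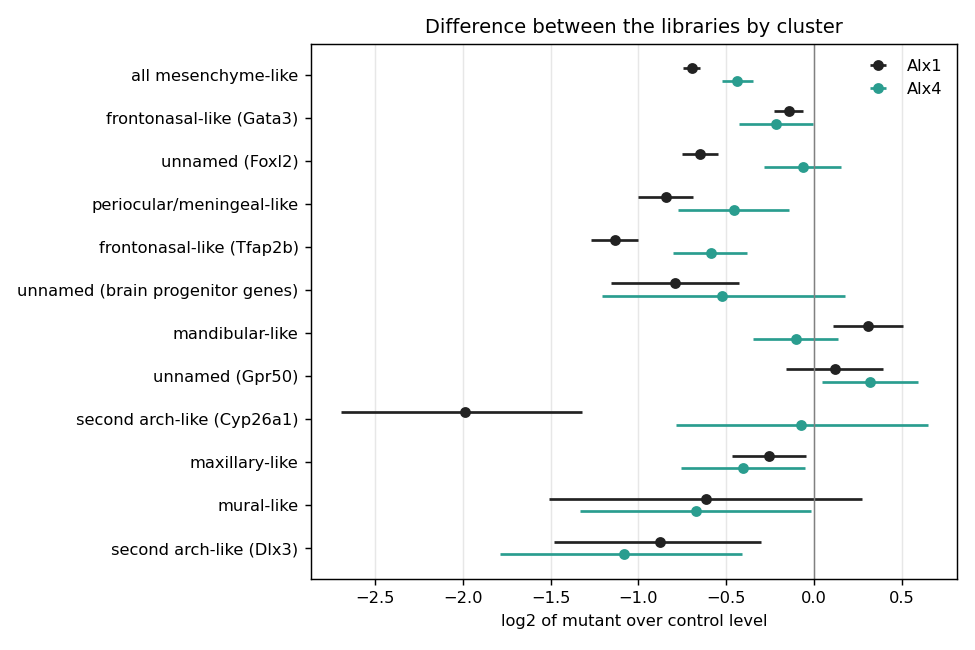
Log2 of the mutant over the control level of Alx1 (black) and Alx4 (green) in all mesenchyme-like cells and in the 11 fine clusters, with exact 95% intervals of counting error and a line at 0. Alx1 runs from -1.99 in the second arch-like cluster led by Cyp26a1 to 0.31 in the mandibular-like cluster, with -1.14 in the frontonasal-like Tfap2b cluster and -0.14 in the frontonasal-like Gata3 cluster.

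Cells were then thinned to 5000 UMIs each, so that depth could not set the share of cells in which a gene was seen. Of the mesenchyme-like cells, 51 control and 55 mutant cells were shallower and were left out. Alx1 was detected in 33.8% of control (32.3% to 35.3%) and 23.6% of mutant cells (22.1% to 25.3%), and Alx4 in 19.2% (17.9% to 20.5%) and 14.2% (12.9% to 15.6%). Before thinning the shares were 43.6% and 32.1% for Alx1 and 39.7% and 31.3% for Alx4. In brain progenitor-like cells, with median depths of 11338 and 11029 UMIs, the thinned shares were 1.11% and 0.307% for Alx1 and 0.616% and 0.230% for Alx4.

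At this depth most of the Alx1 difference across the mesenchyme lay in the share of cells with Alx1, with a log2 ratio of -0.51 for the share and -0.04 for the UMIs of each such cell. Without thinning these were -0.44 and -0.25. Within the Tfap2b cluster 62.6% of control cells and 32.2% of mutant cells had Alx1, which is -30.4 percentage points (-37.7 to -22.7). Cells in which it was detected had a mean of 2.30 UMIs in the control and 2.34 in the mutant library. Had every control cell's count been reduced by the same factor to the mutant mean, the share with Alx1 would have been 45.6% and the mean 1.65 UMIs. Mutant cells with 5 or more Alx1 UMIs were still present, at 3.1% against 5.35% in the control.

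The periocular/meningeal-like cluster had the same form, with Alx1 in 56.9% and 32.2% of cells at means of 3.0 and 3.04 UMIs, against 45.7% and 2.14 UMIs for a reduction by 1 factor. The Foxl2 cluster had Alx1 in 67.9% and 50.4% of cells, against 60.3% for 1 factor. Its log2 ratio was -0.43 for the share and -0.13 for UMIs per detecting cell, but -0.28 and -0.50 without thinning. In the Gata3 cluster 86.4% and 85.4% of cells had Alx1, at means of 3.49 and 3.31 UMIs. At 10000 UMIs per cell the mean in the Tfap2b cluster was lower in the mutant as well, at 3.93 and 3.03 UMIs, but it stayed above the 2.16 that 1 factor gives, and the share of 42.3% stayed below 59.2%. Whether the mutant cells of a cluster held a mixture of regions was not tested.

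Alx4 was closer to a reduction by 1 factor. Within the Tfap2b cluster it was detected in 32.1% of control and 21.3% of mutant cells, where a reduction by 1 factor gives 22.7%. In the periocular/meningeal-like cluster it was detected in 28.5% and 18.8%, against 20.6% for 1 factor. Its low counts, at a mean of 1.36 and 1.29 UMIs in the detecting cells of the Tfap2b cluster, leave little room to tell it from the form of Alx1. In these clusters both mutant shares lay below those of 1 factor, as those of Alx1 did. The mutant Alx4 share lay above that of 1 factor in the Gata3 cluster (28.7% against 27.5%) and the Foxl2 cluster (28.5% against 27.7%).

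**Figure D3:**
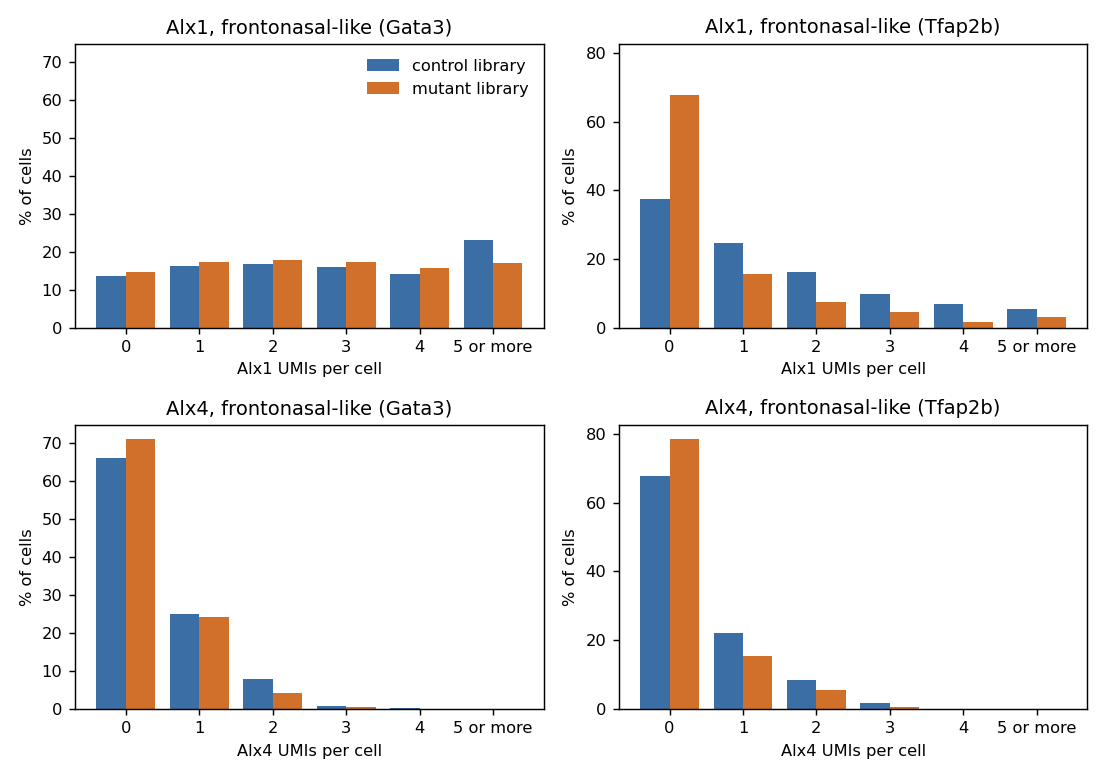
Share of cells, in %, by the number of Alx1 (top) or Alx4 (bottom) UMIs per cell after thinning to 5000 UMIs, in the frontonasal-like Gata3 (left) and Tfap2b (right) clusters of the control (blue) and mutant (orange) library. In the Tfap2b cluster cells with 0 Alx1 UMIs are 37.4% of the control and 67.8% of the mutant, and in the Gata3 cluster 13.6% and 14.6%.

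Both genes were detected together in 11.1% of control mesenchyme-like cells (10.1% to 12.2%) and in 6.18% of mutant cells (5.31% to 7.14%). Cells with Alx1 alone were 22.7% and 17.5%, cells with Alx4 alone 8.05% and 8.03%, and cells with neither 58.2% and 68.3%. The share with both differed by -4.95 percentage points (-6.32 to -3.56), while the share with Alx4 alone differed by -0.0199 points (-1.37 to 1.36).

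Across the mesenchyme the genes were detected together more often than their separate shares give. In the control library 412 cells held both, which was 1.72 times (1.56 to 1.89) the 239.9 cells given by the product of the shares, and in the mutant library 170 cells held both, 1.84 times (1.57 to 2.14) the 92.5 given by the product. Alx4 was detected in 32.9% of control cells with Alx1 and in 12.2% of those without, and in 26.1% and 10.5% in the mutant library. The share with Alx4 was 28.4% in control cells with 1 Alx1 UMI, 35.6% with 2, 33.8% with 3 to 4 and 37.0% with 5 or more, so it differed chiefly between cells with and without Alx1.

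The ratio of observed to expected cells cannot exceed 1 over the share of cells with Alx1, so it has little room above 1 in regions rich in Alx1 and is not compared between regions. The ratio of observed to expected cells with both was 1.05 (0.871 to 1.25) in the control Gata3 cluster, 1.03 (0.828 to 1.27) in the Tfap2b cluster, 1.08 (0.861 to 1.34) in the Foxl2 cluster and 1.06 (0.778 to 1.42) in the periocular/meningeal-like cluster. In the Gata3 cluster 35.5% of control cells with Alx1 (30.5% to 40.8%) and 23.6% of the 55 cells without it (13.2% to 37.0%) had Alx4. In the Tfap2b cluster these shares were 33.1% and 30.4%. The ratio was 3.60 (1.92 to 6.15) in the control maxillary-like cluster, 2.44 (1.49 to 3.77) in the Gpr50 cluster and 1.67 (1.13 to 2.39) in the mandibular-like cluster. In the mutant mandibular-like cluster it was 0.894 (0.386 to 1.76), from 8 cells with both.

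The number of genes seen per cell followed the region. The share with both in the Tfap2b cluster was 20.7% in the control and 9.30% in the mutant library, that with Alx1 alone 41.9% and 22.9%, and that with Alx4 alone 11.4% and 12.0%, while cells with neither were 26.0% and 55.8%. In the Gata3 cluster cells with both were 30.7% and 24.7%, a difference whose interval ran from -13.1 to 1.38 percentage points, and cells with neither were 10.4% and 10.5%. In the mandibular-like cluster cells with Alx1 alone were 11.1% and 23.2%.

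**Figure D4:**
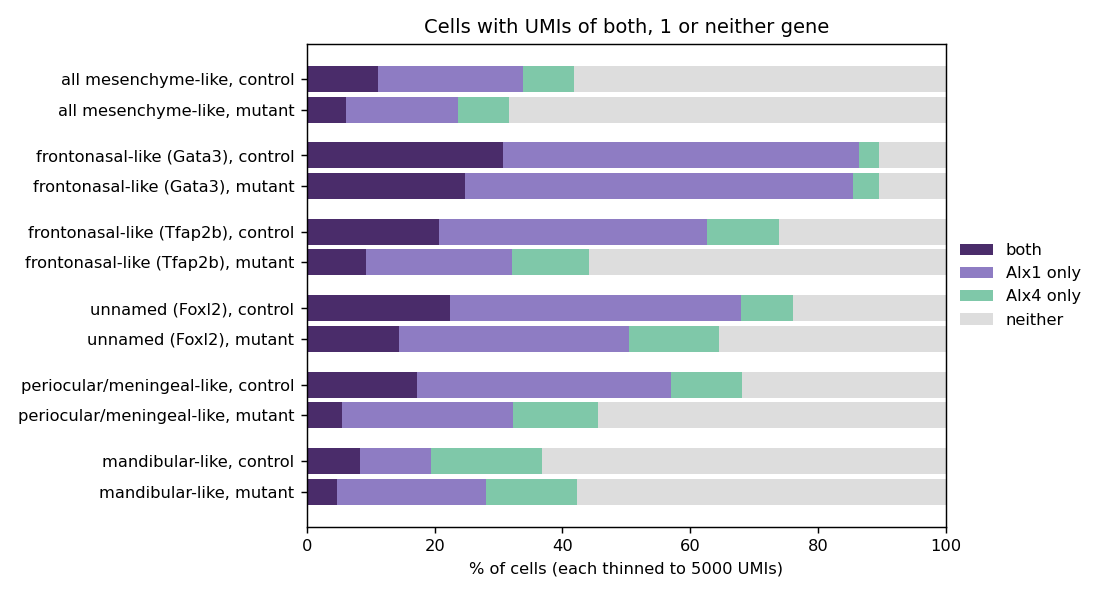
Share of cells, in %, with UMIs of both genes, of Alx1 only, of Alx4 only or of neither, after thinning to 5000 UMIs, in all mesenchyme-like cells and in 5 fine clusters of each library. Cells with neither gene go from 26.0% to 55.8% in the frontonasal-like Tfap2b cluster and stand at 10.4% and 10.5% in the frontonasal-like Gata3 cluster.

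The targeted genes were compared with Alx1 and Alx4 in the same cells. UMIs of both remained in the mutant library. Whether they lie in the floxed part was not tested. In mesenchyme-like cells Tfap2a stood at 19.4 and 13.4 CPM and Tfap2b at 56.5 and 47.4. In the Tfap2b cluster the levels were 77.4 and 46.2 for Tfap2a and 256 and 196 for Tfap2b, and in the Gata3 cluster, where Alx1 was highest, 16.9 and 5.16 for Tfap2a and 7.05 and 8.41 for Tfap2b. The cluster with the highest Alx1 level was thus not one with a high Tfap2b level.

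In single control cells of the mesenchyme, Alx1 was detected in 54.5% of cells with a Tfap2a or Tfap2b UMI and in 29.4% of the others, and in 27.8% and 22.9% in the mutant library. Inside the control Tfap2b cluster this contrast was not detectable, at 61.9% and 63.8%, a difference of -1.84 percentage points (-11.6 to 8.21). It was present in the control Foxl2 cluster, at 84.3% and 64.1%. In the control Tfap2b cluster Alx4 was detected in 37.0% of cells with a Tfap2 UMI and 22.8% of the others, a difference of 14.2 points (4.73 to 23.0). In the mutant cluster it was detected in 27.3% and 15.4%, a difference of 12.0 points (1.44 to 22.3). The Alx4 difference was not detectable in the control Gata3 cluster (2.75 points, -12.1 to 19.3) or the Foxl2 cluster (-0.565, -12.3 to 12.6). Nor was it in the control periocular/meningeal-like cluster (7.52, -3.84 to 18.8).

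Other genes of the midfacial mesenchyme were read from a list of 9, namely Tfap2a, Tfap2b, Pax3, Pax7, Msx1, Msx2, Six2, Crabp1 and Aldh1b1. The study had named Pax3, Pax7 and Msx1 as reduced in these same libraries and in bulk RNA-seq of other samples. Their direction here is thus not independent evidence. The study had named Crabp1 and Aldh1b1 from that bulk RNA-seq. In mesenchyme-like cells 8 of the 9 had enough UMIs, all 8 had ratios below 0 and 2 were 1.5-fold or more lower, where the background was 0.928%. Their median log2 ratio was -0.49, against 0.02 over all genes. These 2 were Pax7, a paired-class factor of neural crest, at a log2 ratio of -0.89, and Crabp1, a retinoic acid binding protein, at -0.90.

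Inside the Tfap2b cluster 6 of 8 were 1.5-fold or more lower, where the background was 1.76%, with a median log2 ratio of -1.38 against 0.0042 over all genes. The list was chosen with results of these data known and holds the targeted Tfap2a. Its members Pax3, Pax7, Six2 and Crabp1 are also the frontonasal markers that named this cluster. The count is thus a description and not an enrichment. Pax3 had a ratio of -2.29 (-2.64 to -1.95), Msx1, a homeobox target of BMP signals, -1.76 (-1.90 to -1.61), Msx2 -1.70, Crabp1 -1.65, Pax7 -1.11 and Tfap2a -0.74. Six2, a homeobox factor of the frontonasal region, had -0.30. The ratio of Alx1 there, -1.14, lay close to that of Pax7. In the Gata3 cluster 1 of 7 was 1.5-fold or more lower, against 0.693%. This was Tfap2a, while Msx1 stood at 1446 and 1450 CPM and Pax3 at 159 and 190. Crabp1 stood at 2349 and 1710 CPM there, a log2 ratio of -0.46 (-0.50 to -0.41), and Msx2 had -0.34 (-0.47 to -0.21). In all 5 of the 7 had ratios below 0, and the median of the 7 was -0.17, against -0.0053 over all genes. Of the 5, Pax7 (-0.47 to 0.14) and Six2 (-0.51 to 0.16) had intervals that crossed 0. The leading genes of the Tfap2b cluster were lower in its mutant cells, with log2 ratios from -0.26 for Shox2 to -0.95 for Eps8. These leading genes include the targeted Tfap2a and Tfap2b, and were picked from pooled cells of both libraries, more of them control cells.

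**Figure D5:**
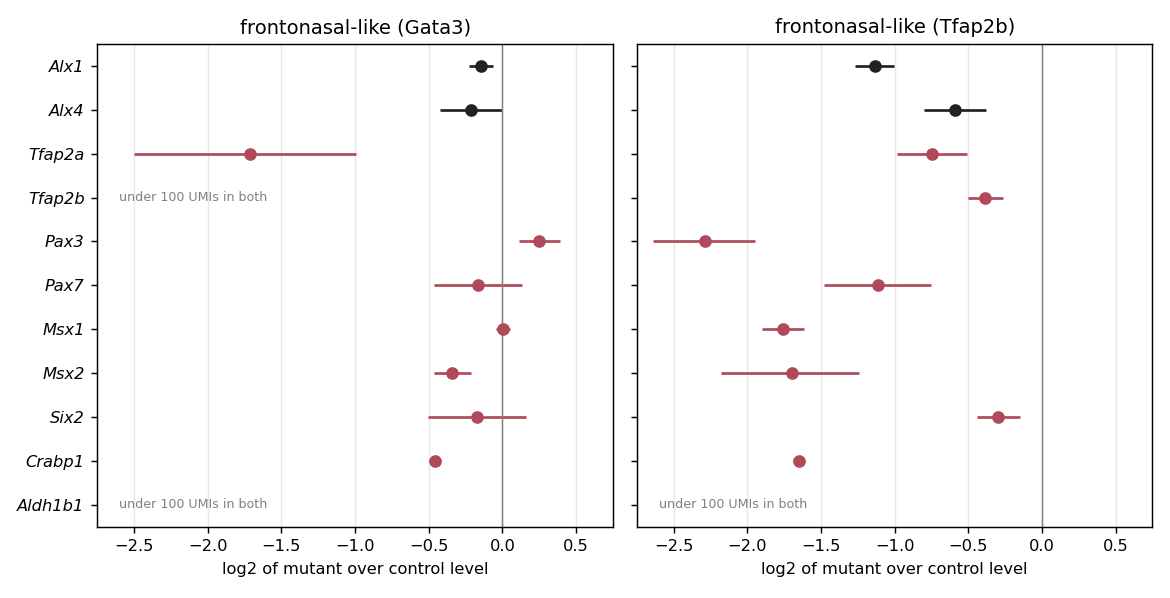
Log2 of the mutant over the control level of Alx1 and Alx4 (black) and of the midfacial genes (red) in the frontonasal-like Gata3 (left) and Tfap2b (right) clusters, with exact 95% intervals of counting error. Genes under 100 UMIs in both libraries are marked as such. Pax3 stands at 0.25 on the left and -2.29 on the right, and Alx1 at -0.14 and -1.14.

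Among 7 other paired-class homeobox genes (Prrx1, Prrx2, Pitx1, Shox2, Gsc, Pax3 and Pax7), all had enough UMIs in mesenchyme-like cells, and 1 was 1.5-fold or more lower, where the background was 0.928%. This was Pax7, at a log2 ratio of -0.89. Prrx1 and Prrx2, expressed across the facial mesenchyme, stood at -0.05 and -0.07. In the Tfap2b cluster Prrx1 was higher in the mutant, at 206 and 272 CPM with a log2 ratio of 0.40 (0.29 to 0.51), and 2 of 6 genes were 1.5-fold or more lower, against 1.76%. These were Pax3 and Pax7, which the midfacial list also holds.

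Genes with a pattern like that of Alx1 and Alx4 were sought over 16 control mesenchyme clusters, which share a library and hence its depth, so that Pearson's r is a description. The pattern of Alx1 was most like those of Hpse2 (r = 0.92), Gata2 (0.90), Pcsk5 (0.88), Dpep1 (0.88) and Rassf3 (0.88). That of Alx4 was most like those of 3110021N24Rik (0.85), Alx1 (0.85), Pcsk5 (0.84), Dpep1 (0.81) and Me1 (0.79). Of these, 3110021N24Rik stood at only 4.04 CPM in the control mesenchyme. Its r with Alx4 was 0.51 in the mutant mesenchyme, where the others had 0.66 to 0.84. For Alx1 with Tfap2a and Tfap2b r was 0.38 and 0.54. In the mutant mesenchyme Alx1 and Alx4 had an r of 0.84, while Alx1 had -0.022 with Tfap2a and 0.39 with Tfap2b.

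Outside the mesenchyme the genes were rare. Glia-like cells had Alx1 at 19.8 and 19.4 CPM and Alx4 at 2.57 and 4.25. Neural-like cells had Alx1 at 10.1 and 4.80 and Alx4 at 3.1 and 2.32, with Alx1 in 2.01% and 0.976% of thinned cells. The background level of Alx1 was thus lower in the mutant library too, as in the brain progenitor-like cells. An unnamed mesenchyme cluster led by brain genes had median depths of 27123 and 26766 UMIs, and of its cells, 28 of 38 in the control and 55 of 78 in the mutant library were called doublets. Without it the mesenchyme's log2 ratios were -0.68 for Alx1 and -0.42 for Alx4.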

How the data were processed

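The authors sequenced 10x 3′ libraries and, per the file headers, counted them with Cell Ranger 6.0.0 on mm10; the submitters' notes also name bcl2fastq and Seurat 4.3.0. The deposited files hold raw UMI counts per gene and cell. The strand setting of counting and any removal of doublets are not given in the sources used here. The study's imputed values were not used, and 2 further items are not reported here.

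Cells with 200 to 7500 genes and up to 10% mitochondrial UMIs were kept. Libraries were integrated and clustered in Seurat 5.3.0 (R 4.3.3) with 28 genes kept out. These were the Alx genes, Tfap2a, Tfap2b, genes that the study named as changed, Xist, Tsix and Y-linked genes. Other genes reported on could take part in the clustering. Classes came from a resolution of 0.05, brain progenitor-like cells from 0.4, and mesenchyme clusters from 0.2 (broad), 0.6 (fine) and 1 (patterns). A mesenchyme cluster took the name of the region list with the highest mean marker ratio, if 3 or more of its markers were higher there and no other list held more of its 10 leading genes. Clusters closest to a brain or glia list stayed unnamed. Called doublets (Scrublet in scanpy, 1.65% of control and 3.06% of mutant cells) were kept.

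UMIs were summed over the cells of a library and divided by their total (CPM, counts in every 1000000). Intervals (95%) are exact Poisson for levels, exact conditional binomial for ratios and Clopper-Pearson for shares; those of differences combine both sides. They treat UMIs as independent molecules. With 1 library per genotype no paired analysis, test or standard error was possible. Named genes are the members, the listed genes, leading cluster genes, and the 5 genes most like each member by Pearson's r of log2(CPM + 10). The ratio and interval functions were tested on simulated data. Members and lists were chosen with earlier results of these data known.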

Additional observations from a re-analysis of the deposited data

Results flagged for a closer look

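Alx1 was higher in the mutant library in the fine mandibular-like cluster, with a log2 ratio of 0.31, while in 8 of the 11 fine mesenchyme clusters its interval lay below 0. Alx4 was higher in the mutant library in the unnamed Gpr50 cluster, at 46.6 and 58.2 CPM with a log2 ratio of 0.32 (0.04 to 0.60) that turned to -0.064 with cells up to 5% mitochondrial UMIs, while in 6 of the 11 clusters its interval lay below 0. Both drew attention because regions went in opposite directions between the same libraries. With 1 library per genotype neither difference between regions was tested against replicates. The clusters counted as lower include the maxillary-like one, which reversed for Alx1 when thinned and for Alx4 without integration. For Alx1 they also include the cluster led by brain genes, where most cells were called doublets.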

How the results depend on the processing

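No paired analysis was possible because there was 1 library per genotype. Ratios of Alx1 and Alx4 in all mesenchyme-like cells kept their direction under all alternatives run, and those that left the interval of the reported value were for Alx1 -0.63 with equal weight per cell, -0.55 with cells thinned to 5000 UMIs and -0.76 with cells up to 5% mitochondrial UMIs (2691 control and 1715 mutant cells). The causes of the shifts given here were not tested. The ratios by region that reversed were Alx1 in the fine maxillary-like cluster (-0.26 to 0.049 when thinned), Alx4 there (-0.40 to 0.067 without integration) and Alx4 in the Gpr50 cluster (0.32 to -0.064 with cells up to 5% mitochondrial UMIs).

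At the 0.6 resolution each broad cluster was replaced by the fine cluster that held the largest part of its cells, so those values cover only that part. For the broad maxillary-like and Tfap2b-led clusters these were the fine maxillary-like (46.7% of the cells) and Tfap2b clusters (45.3%). For the broad second arch-like and mandibular-like clusters they were the Dlx3-led (67.9%) and Gpr50 clusters (54.5%). In the broad maxillary-like cluster Alx1 moved to -0.41 with equal weight, -0.36 thinned, -0.61 up to 5% mitochondrial UMIs, -0.33 without integration and -0.26 at the 0.6 resolution. In the broad Tfap2b-led cluster Alx1 moved to -0.79 thinned, -1.02 up to 5% mitochondrial UMIs, -0.75 without integration and -1.14 at the 0.6 resolution, and Alx4 to -0.38 up to 5% mitochondrial UMIs. In the broad second arch-like cluster Alx1 moved to -0.28 up to 5% mitochondrial UMIs and Alx4 to -1.08 at the 0.6 resolution. In the broad mandibular-like cluster Alx4 moved to 0.32 at the 0.6 resolution, which is the value of the Gpr50 cluster. The fine mandibular-like cluster had -0.10. In the broad cluster led by brain genes, without called doublets, Alx1 moved to -0.044 and Alx4 to 0.54, and Alx1 to -1.31 without integration.

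In fine clusters thinning moved Alx1 to -0.94 (Tfap2b) and 0.41 (Gpr50) and Alx4 to -0.49 (mandibular-like), and equal weight moved Alx1 to -0.010 (maxillary-like). Cells up to 5% mitochondrial UMIs moved Alx1 to -0.27 (second arch-like, Dlx3), -0.95 (Foxl2), -1.15 (periocular/meningeal-like) and -1.18 (second arch-like, Cyp26a1), and Alx4 to -0.091 (periocular/meningeal-like), 0.77 (second arch-like, Cyp26a1) and -1.75 (mural-like). Without called doublets Alx1 moved to -1.56 (second arch-like, Dlx3) and -0.018 (brain genes), and Alx4 to 0.57 (brain genes). Without integration, an alternative chosen after seeing the data, Alx1 moved to -0.62 (maxillary-like), -2.94 (second arch-like, Dlx3), -0.73 (Tfap2b), -0.33 (Gata3 and Foxl2, which then had the same best-matching cluster), -0.55 (second arch-like, Cyp26a1) and -1.33 (brain genes), and Alx4 to -2.80 (second arch-like, Dlx3) and -0.36 (Foxl2).

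The mutant minus control share of cells with Alx4 was -2.14 percentage points at 2500 UMIs, -8.42 without thinning and -1.60 at 2 UMIs. That of cells with 1 of the genes was -7.81 at 2500 UMIs and -2.41 without thinning, and that of cells with both -1.63 at 2500, -6.52 at 10000, -8.76 without thinning and -1.59 at 2 UMIs. The log2 of observed over expected cells with both was 0.63 without thinning and 1.07 at 2 UMIs in the control, and 0.36 at 2 UMIs in the mutant library. Alx1 UMIs per detecting cell had log2 ratios of -0.21 at 10000 UMIs and -0.25 without thinning, against -0.04. Genes 1.5-fold or more lower numbered 108, 285 with a 30-UMI filter and 1488 with 1 UMI in each library.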
